A study of Homo sapiens with 12 samples.

Results

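Transcripts were compared between LNCaP cells given the microRNA miR-130a and LNCaP cells given a scramble microRNA as control. LNCaP is an established, androgen-responsive human prostate cancer line. The comparison rests on 3 miR-130a arrays and 3 scramble arrays out of 12 arrays in the series; the other 6 hold cells given miR-203 or miR-205, with 3 arrays each. All 4 groups are the same cell line, so they differ by label only in the transfected microRNA. The labels describe the cells as transfected and call the 3 arrays of a group biological replicates, while no dose, no time after transfection and no form of the microRNA (mimic or vector) is stated there. The genes were chosen by probe set: of 22277 probe sets on the array, 19070 carry exactly 1 gene symbol, these stand for 11963 genes, and 6821 of the genes were bright enough to be tested. A gene was represented by the probe set with its highest mean over the 12 arrays, and it was tested where the brightness of this probe set exceeded the median of the array on 3 or more of 12 arrays.

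MicroRNAs are short RNAs that guide the Argonaute silencing complex to messenger RNAs, mostly through pairing of the seed near the 5′ end with sites in the 3′ untranslated region, and the paired messages are repressed or degraded. Messages without a site can change as well, since the cell responds to the changed proteins and to the transfected RNA itself. RNA sensors in the cytoplasm, for example, start the interferon response, and cells short of amino acids or under translational stress make the transcription factor ATF4, which switches on amino acid synthesis and transport. hsa-miR-130a-3p belongs to the miR-130 family. The mature sequences of 4 family members are printed to show what the family shares, taken from RefSeq (GRCh38.p14) and written 5′ to 3′ with the seed, bases 2 to 8, in capitals.
hsa-miR-130b-3p: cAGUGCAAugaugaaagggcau
hsa-miR-301a-3p: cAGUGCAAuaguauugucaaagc
hsa-miR-301b-3p: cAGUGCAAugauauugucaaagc
hsa-miR-454-3p: uAGUGCAAuauugcuuauagggu
The seed is the same in all of these, and 6 of 2370 mature sequences in the table hold it: the 4 printed ones, hsa-miR-3666 and hsa-miR-4295. The 2370 sequences do not include hsa-miR-130a-3p, so its own sequence was neither printed nor counted. Seed sites in messenger RNAs were not searched here. The 3′ ends differ between the members.

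Values are deposited log2 expression values, so a difference of 1 is a 2-fold change, and differences are given as miR-130a minus scramble with the standard error of the limma fit (SE, 3 arrays per group). A gene is called where its Benjamini-Hochberg adjusted p from that fit, taken over all 6821 genes, is under 0.05. Values of single arrays are listed in replicate order. The spread behind these p-values is that between the cultures of a group, and an exact test of 3 arrays against 3 cannot give p under 0.1. Where a gene lay below the array median on every array of a group, its change is given only as a bound.

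Arrays of a group resembled each other more than arrays of different groups. Over the tested genes, the correlations within the miR-130a and scramble groups lay between 0.9936 and 0.9973, and those between the groups between 0.9746 and 0.9773. Luminal prostate cell markers fitted the label: 8 of the 9 markers named on the array lay above the array median on all 6 arrays, and 1 (NPY) lay above it on none. Of 7 basal cell markers and of 12 leukocyte and endothelial markers, 0 lay above the median on all 6 arrays and all lay above it on none. Of 12 fibroblast and smooth muscle markers, 2 (COL1A1 and ACTA2) lay above it on all 6 arrays and 9 on none. The summed level of that list (log2 of the sum) was 6.26 to 6.32 on miR-130a arrays and 6.16 to 6.21 on scramble arrays, while that of the leukocyte and endothelial list was 5.96 to 5.98 and 5.96 throughout, and the part of other cells in the results was not tested. RNA quality was read from the gap between the 3′ and the 5′ probe set of a gene, which was 2.18 to 2.34 log2 for ACTB on miR-130a arrays and 2.30 to 2.66 on scramble arrays, and 0.72 to 0.74 against 0.56 to 0.90 for GAPDH, with overlap in both. The spiked control bioB read 5.87 to 6.24 on miR-130a arrays and 6.33 to 6.58 on scramble arrays, and bioC read 7.53 to 7.81 and 7.83 to 8.11. Both controls were lower on the miR-130a arrays without overlap, and their part in the results was not tested.

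Genes changed in both directions in nearly equal number, but the large changes were mostly increases. Of 6821 tested genes 1610 were called (23.6%), 819 higher (12%) and 791 lower (11.6%). The median difference over all tested genes was -0.0085. At least 2-fold changes, with dim genes at their bounds, were found in 100 genes (1.47%), 76 higher and 24 lower. The interferon-induced and class I antigen presentation lists held 85 tested genes, of which 66 were called and 36 rose at least 2-fold. Outside these lists 1544 of 6736 genes were called, 754 higher and 790 lower, with 40 higher and 24 lower by at least 2-fold. The lists do not hold every gene that responds to interferon, so genes outside them can still belong to that response. The median size of the called differences there was 0.43 log2. In 2672 genes (39.2%) every array of one group lay beyond every array of the other.

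**Figure D1:**
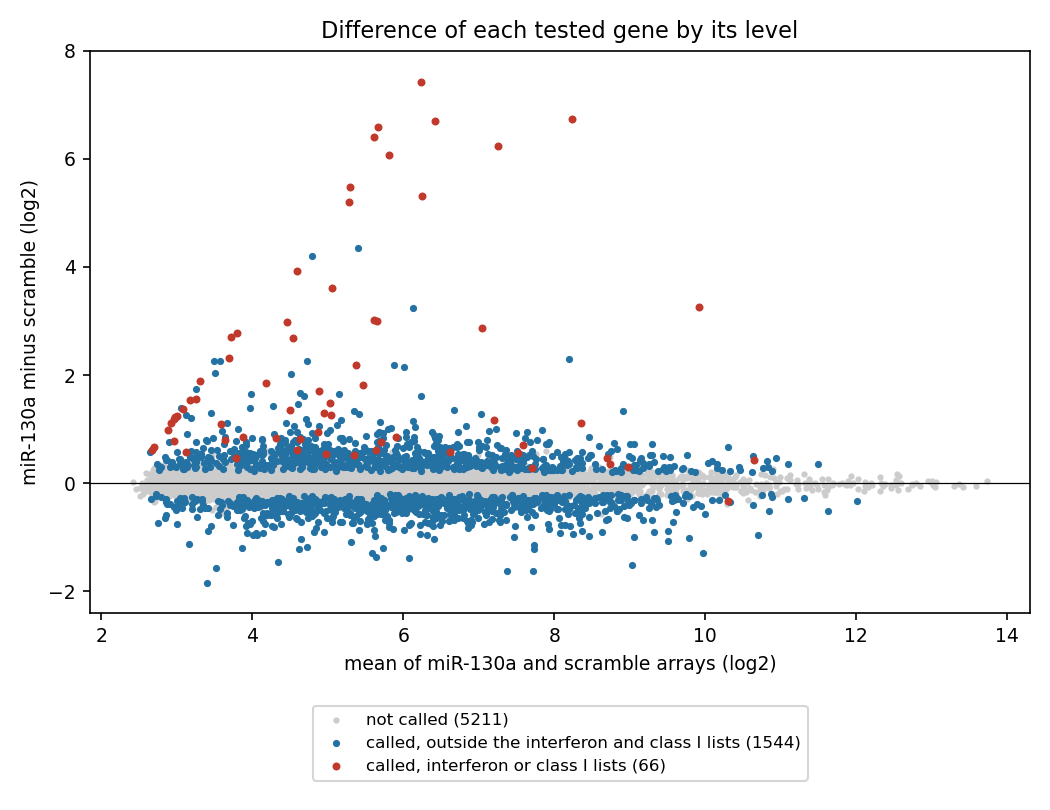
Difference between miR-130a and scramble (log2, vertical) against the mean level of both groups (log2, horizontal) for 6821 tested genes, 1 point per gene, with 5211 genes not called in grey, 1544 called outside the interferon and class I lists in blue and 66 called inside them in red. The largest differences are red and positive, and the blue points spread to both sides of 0.

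The largest increase outside the interferon and class I lists was that of PLAAT4, a phospholipid acyltransferase gene known to respond to retinoids and interferon. Its level was 7.64, 7.66 and 7.43 on the miR-130a arrays and 3.16, 3.11 and 3.41 on the scramble arrays, a rise of 4.34 ± 0.11 (adjusted p = 7.68e-12). ULBP2 encodes a surface ligand of the activating receptor NKG2D on natural killer cells. It read 7.08, 6.83 and 6.76 with miR-130a and 2.74, 2.65 and 2.65 with scramble, where it was above the array median on 0 of 3 arrays, so it rose at least 17.5-fold (adjusted p = 1.18e-11). In both genes every miR-130a array lay far above every scramble array. Groups without overlap were a condition for naming the largest changes, so only the distance is a result.

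KLF4 is a zinc finger transcription factor of epithelial differentiation. The miR-130a arrays held it at 7.82, 7.77 and 7.65 and the scramble arrays at 4.55, 4.28 and 4.67, which gives a rise of 3.25 ± 0.11 (adjusted p = 8.47e-11). PMAIP1, which encodes the pro-apoptotic BH3-only protein NOXA, went from 7.06, 6.90 and 7.16 to 9.43, 9.35 and 9.24, a rise of 2.30 ± 0.12 (adjusted p = 1.76e-08). For these genes, too, groups without overlap were a condition for being named. Next in size were PRSS23, a secreted serine protease gene (2.26 ± 0.10), UGT2B28, whose product conjugates steroids with glucuronic acid (2.19 ± 0.11), the ubiquitin ligase gene UBE3B (2.14 ± 0.17) and EXT1, which builds heparan sulfate chains (2.02 ± 0.16). Genes that were below the array median on all scramble arrays were MSMB, a protein secreted by prostate epithelium (at least 3.85-fold higher), the complement factor gene CFB (at least 3.63-fold) and TNFAIP3, a deubiquitinase that restrains NF-kB (at least 3.38-fold). CFB stood at 2.36 on each scramble array, the lowest value in the table, and at 4.74, 4.92 and 4.19 with miR-130a. MREG, a melanosome transport gene, rose by 1.67 ± 0.10, DIPK1A by 1.65 ± 0.12, the RNA-decay factor gene ZFP36L2 by 1.64 ± 0.14 and ANKRD46 by 1.62 ± 0.11. Averaged over all probe sets of a gene, the rises of EXT1, UBE3B, CFB and ZFP36L2 were 1.02, 1.23, 1.13 and 0.80.

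The 15 largest increases were set against the other microRNAs on the same scale. Those comparisons use the same scramble arrays, so the values are given side by side only. With miR-203, PLAAT4 differed from scramble by 2.20, KLF4 by 1.22 and PMAIP1 by 0.97, and with miR-205 by -0.15, -0.28 and -0.51. For UGT2B28 and EXT1 the miR-203 difference was 0.06 and 0.08, and the miR-205 difference was 0.49 and -0.44. ULBP2, dim with scramble, read 4.28, 3.80 and 3.96 with miR-203. CFB stood at the lowest value in the table, 2.36, on all miR-203 and miR-205 arrays as well. Compared directly, the miR-130a arrays were higher than the miR-203 arrays and higher than the miR-205 arrays for 14 of the 15 genes. The direct comparisons reuse the miR-130a arrays on which the genes were chosen. ANKRD46 was the other: it was 0.26 above miR-203 (adjusted p = 0.0826) and 0.35 below miR-205.

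**Figure D2:**
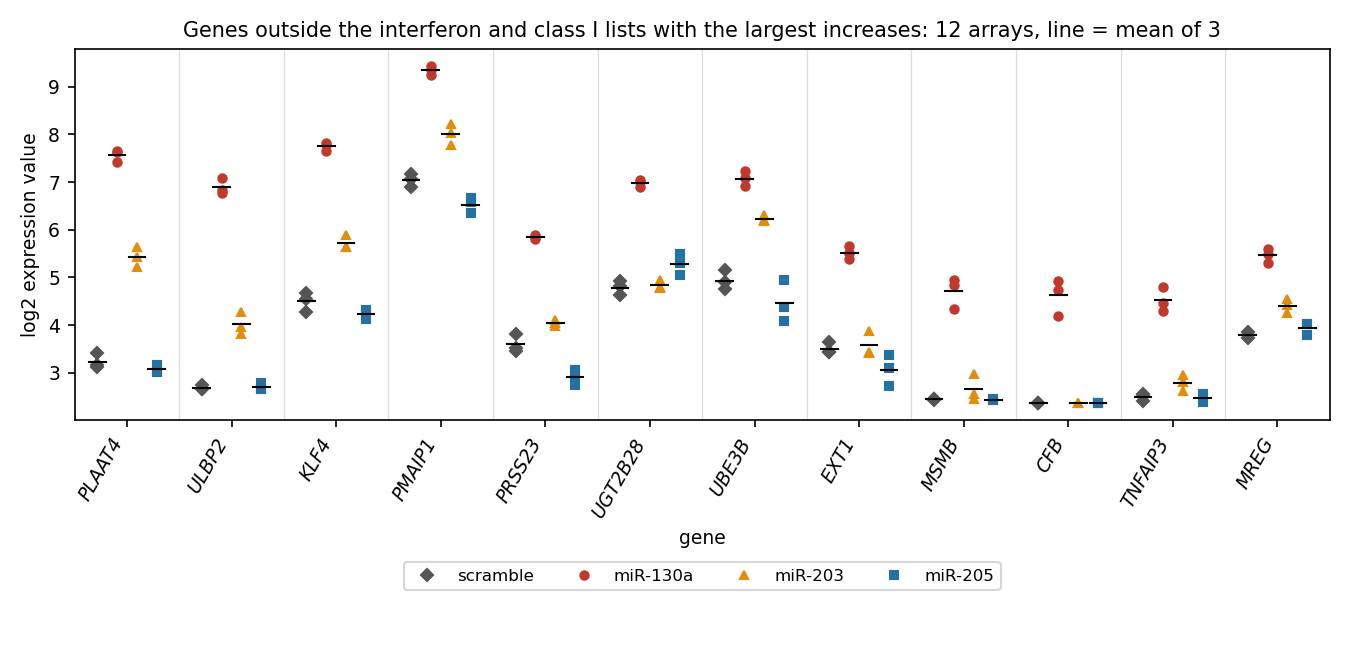
Level (log2) of the 12 largest increases outside the interferon and class I lists on each of the 12 arrays, by microRNA, with a line at each mean of 3 arrays. The miR-130a arrays lie above all scramble arrays in each gene, which was a condition for choosing them. For PLAAT4, ULBP2, KLF4 and PMAIP1 the miR-203 arrays lie in between.

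Of the 15 largest decreases, 7 belonged to the lists of ATF4 response genes and amino acid transporters. PCK2, the mitochondrial phosphoenolpyruvate carboxykinase, read 6.90, 6.90 and 6.92 on miR-130a arrays and 8.49, 8.54 and 8.58 on scramble arrays, and fell by 1.63 ± 0.09 (adjusted p = 2.39e-08). SLC7A11, the cystine and glutamate exchanger, stood at 6.65, 6.38 and 6.66 against 8.21, 8.13 and 8.21, and fell by 1.62 ± 0.09 (adjusted p = 4.71e-08). ASNS makes asparagine from aspartate and is a standard target of ATF4. It lay at 8.34, 8.15 and 8.34 with miR-130a and at 9.78, 9.78 and 9.80 with scramble, a fall of 1.51 ± 0.10 (adjusted p = 1.5e-07). Groups that lie apart were a condition for naming these genes. The spread inside each group was under 0.3 log2. The stress-inducible NIBAN1, below the array median on all miR-130a arrays, fell at least 2.93-fold. CHAC1, which breaks down glutathione, fell by 1.45 ± 0.14, the transcription factor gene DDIT3 by 1.39 ± 0.14 and the pseudokinase gene TRIB3 by 1.22 ± 0.11.

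Across the list of ATF4 amino acid response genes 16 of 24 tested members fell, 2 rose and 6 were not called, with a median difference of -0.66. All tested genes gave 11.6% lower and 12% higher. ATF4 itself, named here after its values were seen, read 8.90, 8.97 and 9.02 on miR-130a arrays and from 9.99 to 10.16 on scramble arrays, a fall of 1.08 ± 0.07. EIF4EBP1, which holds back cap-dependent translation, fell by 0.82 ± 0.09, and GDF15, a secreted stress cytokine, by 0.96 ± 0.10 (0.48 lower as the mean of its probe sets). The 2 that rose were the transcription factor genes CEBPD (0.60, and 0.32 as the mean of its probe sets) and ATF3 (0.47). ATF3 lost its call in 5 alternatives, among them the fit without miR-130a replicate 1 (0.39, adjusted p = 0.0992).

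Amino acid transporters, which carry amino acids through the plasma and mitochondrial membranes, were called in both directions. Of 18 tested members 8 fell and 5 rose, so 72.2% were called, against 23.6% of all tested genes (12% higher and 11.6% lower). SLC1A5, the neutral amino acid and glutamine transporter, was at 5.86, 5.88 and 5.91 with miR-130a and at 6.77, 7.09 and 6.91 with scramble, a fall of 1.04 ± 0.10. SLC1A4, which moves alanine and serine, fell by 0.88 ± 0.09 (0.44 as the mean of its probe sets), and SLC3A2, the heavy chain that partners SLC7A11, fell by 0.69 ± 0.08. The members that rose did so by 0.38 to 0.47, among them SLC25A13, a mitochondrial aspartate and glutamate carrier, at 0.47. Serine and one-carbon genes were lower in 7 of 21 cases and higher in 1 (38.1% called). PHGDH, the entry enzyme of serine synthesis, stood at 7.69, 7.78 and 7.78 against 8.62, 8.36 and 8.60, and fell by 0.78 ± 0.10. MTHFD2, of the mitochondrial folate cycle, fell by 0.78 ± 0.08, and PSAT1, the second step of serine synthesis, by 0.65 ± 0.12. CBS, which joins homocysteine and serine, fell by 0.65 ± 0.11.

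Aminoacyl-tRNA synthetases load tRNAs with their amino acids. Of 17 tested genes 9 fell and 2 rose, with a median of -0.30. That is 64.7% called, against 23.6% of all tested genes (12% higher and 11.6% lower). GARS1, for glycine, read 9.25, 9.27 and 9.31 on miR-130a arrays and 10.36, 10.15 and 10.34 on scramble arrays and fell by 1.01 ± 0.09. SARS1, for serine, fell by 0.95 ± 0.07, CARS1, for cysteine, by 0.72, and YARS1, for tyrosine, by 0.62. HARS1, for histidine, rose by 0.54 ± 0.09, and WARS1, for tryptophan and also an interferon-induced gene, rose by 0.55 ± 0.10. The remaining 6 synthetase genes were not called.

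A promoter stretch of ASNS is shown because the gene holds the best known ATF4 response element. The motif TGATGNAA (N is any base) was searched on both strands of the 300 bases from 250 before to 50 after each gene start in the RefSeq table, and it was found in 3 of 20 tested members of the ATF4 list that have a promoter there (ASNS, ATF3 and CHAC1; 15%). Among the promoters of all tested genes 1.5% held it. The stretch lies at chr7:97872409-97872528 on the minus strand (GRCh38.p14), with the match in capitals.
ASNS: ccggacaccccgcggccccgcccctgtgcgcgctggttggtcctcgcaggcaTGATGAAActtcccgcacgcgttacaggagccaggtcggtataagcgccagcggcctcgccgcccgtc
ASNS and CHAC1 are among the genes that fell, and ATF3 rose.

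Values for the other microRNAs lay on the same side of scramble. With miR-203 and miR-205 the list's median difference from the same scramble arrays was -0.57 and -0.73. ASNS differed by -1.06 with miR-203 and -1.59 with miR-205, PCK2 by -1.79 and -1.95, TRIB3 by -1.28 and -1.28, and ATF4 by -1.03 and -0.99. In the direct comparison with miR-203, where 21.1% of all tested genes were higher with miR-130a and 20.1% lower (41.2% in all), 6 of the 24 members were higher and 4 lower. Against miR-205, where 18.2% of all tested genes were higher and 15.4% lower (33.6% in all), 10 were higher and 1 lower. SLC7A11, chosen on the same miR-130a arrays, was lower with miR-130a than with either, by 0.77 against miR-203 (adjusted p = 2.68e-05) and by 0.86 against miR-205 (adjusted p = 1.14e-05).

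**Figure D3:**
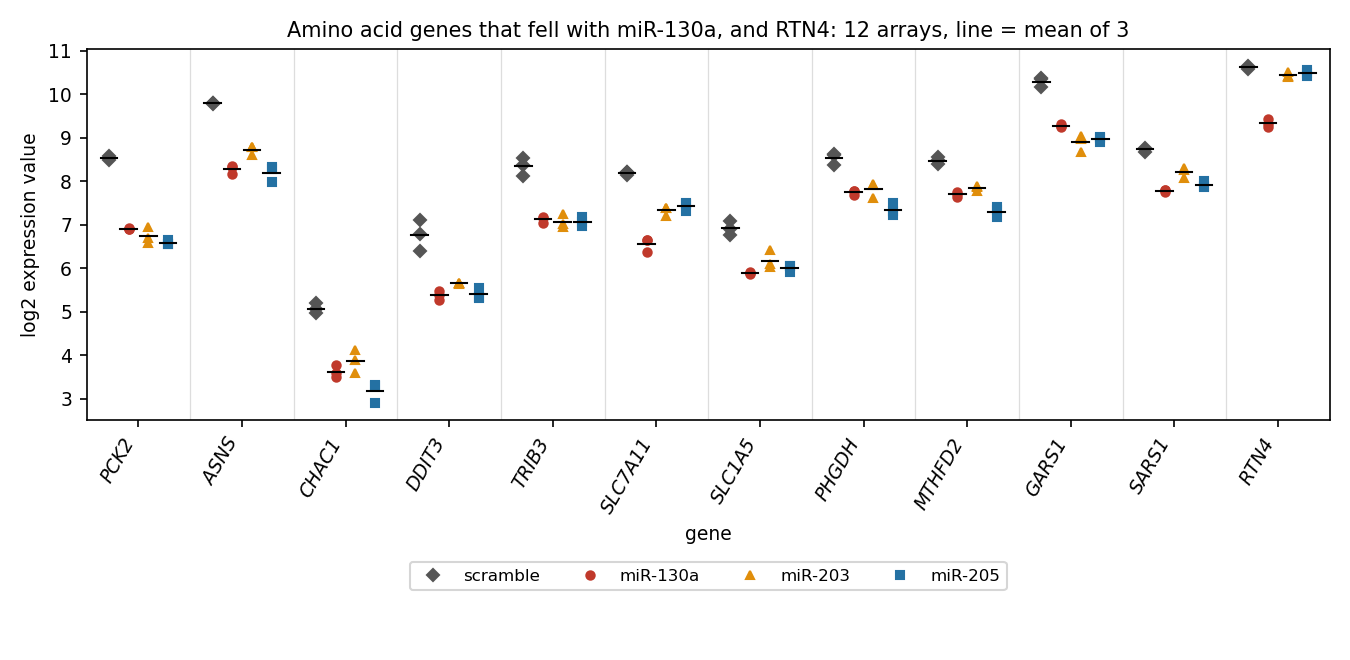
Level (log2) of 11 genes of amino acid synthesis, transport, tRNA charging and stress signalling, and of RTN4, on each of the 12 arrays by microRNA, with a line at each mean of 3 arrays. In all 12 genes the scramble arrays lie above the miR-130a arrays; for most amino acid genes the miR-203 and miR-205 arrays lie low as well, while for RTN4 they lie close to scramble.

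Among the 15 largest decreases, 6 were lower with miR-130a than with each of the other microRNAs. These direct comparisons, too, reuse the miR-130a arrays on which the genes were chosen. RTN4, a membrane protein that shapes the tubular endoplasmic reticulum, was one of the 6. It read 9.42, 9.24 and 9.31 with miR-130a and 10.58, 10.62 and 10.64 with scramble, a fall of 1.29 ± 0.07 (adjusted p = 4.02e-08), while its means were 10.43 with miR-203 and 10.48 with miR-205. The direct differences were -1.10 against miR-203 (adjusted p = 1.49e-07) and -1.16 against miR-205 (adjusted p = 9.43e-08). TBL1XR1, a subunit of the nuclear receptor corepressor complex, fell by 1.36 ± 0.13 and was 0.70 below miR-203 and 1.57 below miR-205. ZDHHC24, of the palmitoyltransferase family, fell by 1.21 ± 0.14 and was 1.17 and 1.03 below them. The other three were SLC7A11, DNAJC10, which reduces disulfide bonds in the endoplasmic reticulum (a fall of 1.30 ± 0.12), and the transmembrane glycoprotein gene GPNMB (a fall of 1.20 ± 0.10). DIO3, which inactivates thyroid hormone, fell by 1.19 ± 0.13 and was called against neither microRNA, with direct differences of -0.12 from miR-203 and -0.10 from miR-205. NIBAN1 was called against neither as well.

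Among 35 tested chaperone and unfolded protein genes of the endoplasmic reticulum 10 fell, 1 rose and 24 were not called, so 31.4% were called against 23.6% of all tested genes. HERPUD1, which helps remove misfolded proteins, stood at 8.34, 8.32 and 8.34 against a scramble mean of 9.03 and fell by 0.69 ± 0.06. TRAM1, of the translocation channel, fell by 0.64 ± 0.11 (0.41 as the mean of its probe sets) and EDEM1, which directs glycoproteins to degradation, by 0.61 ± 0.10, whereas the co-chaperone gene DNAJB9 rose by 0.56 ± 0.07. The list's median was -0.09 (-0.06 when dim probe sets were kept). In the vesicle coat and Golgi list, with 28.8% called, 11 of 52 fell and 4 rose (7 fell without miR-130a replicate 3 or scramble replicate 3). Genes of the COPI coat were among them: ARCN1 fell by 0.85 ± 0.08, from 8.40, 8.23 and 8.42 to 7.51, 7.46 and 7.54, and COPB1 by 0.68 ± 0.08. ARF5, a small GTPase of the Golgi, fell by 0.76 ± 0.12. SAR1A, the GTPase that starts COPII coats, went up, at 7.71, 7.71 and 7.42 against 6.84, 6.41 and 6.69, a rise of 0.97 ± 0.11.

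Antioxidant and glutathione genes, many of them targets of the transcription factor NRF2, were lower or not called. Of 34 tested members 14 fell and 0 rose, with a median of -0.15. That is 41.2% called, against 23.6% of all tested genes (12% higher and 11.6% lower). The heme oxygenase gene HMOX1 read 2.69, 2.83 and 2.69 with miR-130a, brighter than the median of the array on 1 of these, and 4.33, 4.05 and 4.54 with scramble, a fall of 1.57 ± 0.23. SQSTM1, an autophagy receptor that also activates NRF2, read 9.11, 9.05 and 9.03 against 9.82, 9.93 and 10.10 and fell by 0.89 ± 0.09. The quinone reductase gene NQO1 fell by 0.63 ± 0.13. Against miR-203, 4 members were higher and 9 lower with miR-130a, and against miR-205 3 and 10. Over all tested genes 41.2% were called against miR-203 (20.1% lower) and 33.6% against miR-205 (15.4% lower). Counted in both directions, the members called lay near these shares. The count of members lower than scramble was 9 without miR-130a replicate 3 or scramble replicate 3, and it was 8, with a median of -0.05, when dim probe sets were kept in the test.

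Lysosome and autophagy genes gave 17 lower and 2 higher members of 56 (4 higher without scramble replicate 1, 1 without miR-130a replicate 1 or scramble replicate 3). That is 33.9% called, against 23.6% of all tested genes (12% higher and 11.6% lower). CTSA, the protective cathepsin, had a mean of 4.95 on miR-130a arrays and read 5.73, 5.67 and 5.66 on scramble arrays and fell by 0.73 ± 0.08. It was also lower than with miR-203 (by 1.19) and with miR-205 (by 0.72). ATP6AP2, an accessory subunit of the proton pump, fell by 0.67 ± 0.08, ATG2B, a lipid transfer protein of autophagosome growth, by 0.77 ± 0.15, and the hexosaminidase gene HEXA by 0.59 ± 0.11 (0.26 as the mean of its probe sets). 

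Of 22 genes of mitochondrial fatty acid oxidation 10 fell and 1 rose, with a median of -0.21. CPT1A, which brings long-chain fatty acids to the mitochondrion, fell by 0.50 ± 0.08 with its brightest probe set but was not called as the mean of its probe sets (-0.16, adjusted p = 0.0631). ACADVL, the very-long-chain acyl-CoA dehydrogenase, fell by 0.36 ± 0.09. Among 58 genes of the respiratory chain and ATP synthase 12 fell and 0 rose, led by NDUFV1 of complex I at -0.47, and their median was -0.09. So 50% of the fatty acid oxidation list and 20.7% of the respiratory chain list were called. Over all tested genes 23.6% were called, 12% higher and 11.6% lower. Without miR-130a replicate 3, 4 fatty acid oxidation genes and 3 respiratory chain genes were called lower. The fatty acid oxidation count was 5 or 6 without any 1 of miR-130a replicates 1 and 2 and scramble replicates 2 and 3, and the respiratory chain count was 4, 7 and 5 without miR-130a replicate 1, scramble replicate 2 and scramble replicate 3. Mitochondrial ribosome genes were lower in 11 of 47 cases and higher in 1 (6 lower without miR-130a replicate 2 or 3 and 7 without replicate 1), with MRPS35 of the small subunit at -0.59. Their share called, 25.5%, was near that of all tested genes. The tricarboxylic acid cycle list gave 4 higher and 3 lower of 32 (5 lower without scramble replicate 2), a share of 21.9% called that lies near the 23.6% of all tested genes. In it DLST, of the oxoglutarate dehydrogenase complex, fell by 0.67 ± 0.09.

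Genes of replication and mitosis, where called, were higher with miR-130a. Of 51 tested DNA replication genes 23 rose and 0 fell, with a median of 0.34, and of 71 mitosis and spindle genes 31 rose and 0 fell, with a median of 0.44. The other 28 replication genes and 40 mitosis genes were not called. Over all tested genes 12% were higher and 11.6% lower. MCM2, a subunit of the replicative helicase, read 7.55, 7.48 and 7.50 against 6.83, 6.74 and 6.56, a rise of 0.80 ± 0.10. GMNN, which keeps origins from being licensed again, rose by 0.83 ± 0.12, and the GINS complex gene GINS3 by 0.72 ± 0.10. CDC25A, the phosphatase that activates cyclin-dependent kinases, stood at 5.52, 5.53 and 5.34 with miR-130a and at 4.50, 4.56 and 4.51 with scramble and rose by 0.94 ± 0.08 (0.59 as the mean of its probe sets). The centriole kinase gene PLK4 rose by 0.79 ± 0.09 (0.37 as that mean), and the mitotic kinesin gene KIF20A by 0.94 ± 0.16. The mitosis count was 17 without scramble replicate 3, 18 and 20 without miR-130a replicates 1 and 2, 15 when dim probe sets were kept and 45 with array weights.

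CHEK2, the checkpoint kinase of DNA damage signalling, had the largest rise among the cell cycle and repair lists. It was at 4.83, 4.61 and 4.53 with miR-130a and at 3.34, 3.25 and 3.22 with scramble, a rise of 1.39 ± 0.10 (adjusted p = 6.36e-07). Of 59 repair genes 14 rose and 1 fell, among them POLQ, of end joining, at 0.84 ± 0.14 and RAD51AP1, of homologous recombination, at 0.73 ± 0.12. Without miR-130a replicate 1, miR-130a replicate 2 or scramble replicate 3, 9 repair genes were higher, and 8 were when dim probe sets were kept. The share of repair genes called, 25.4%, lay near that of all tested genes. Regulators of the G1 phase were called both ways, with 9 of 30 higher and 4 lower (2 lower without miR-130a replicate 3 or scramble replicate 2). So 43.3% of them were called, against 23.6% of all tested genes (12% higher and 11.6% lower). SKP2 encodes the ligase subunit that marks the inhibitor p27 for destruction, and it read 6.48, 6.57 and 6.66 against 5.89, 5.71 and 5.52, a rise of 0.86 ± 0.13 (0.42 as the mean of its probe sets). CDKN1B, which encodes p27 itself, read 6.28, 6.17 and 6.33 against 6.88, 7.13 and 6.88, a fall of 0.71 ± 0.10. RBL1, an RB-like pocket protein gene, rose by 0.91 ± 0.15, and CDKN2A by 0.76 ± 0.11 (0.36 as the mean of its probe sets).

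The cell cycle lists separated miR-130a from the other microRNAs. Of 71 mitosis genes 67 were higher with miR-130a than with miR-203 and 66 higher than with miR-205, and 0 were lower in either comparison. For replication genes the counts were 41 higher and 1 lower against miR-203, and 45 and 1 against miR-205, of 51. Over all tested genes 21.1% were higher and 20.1% lower against miR-203, and 18.2% and 15.4% against miR-205. With scramble as the common base, the mitosis median was 0.44 for miR-130a, -0.48 for miR-203 and -1.07 for miR-205, and the replication median was 0.34, -0.36 and -0.63. MCM2 differed from scramble by -0.53 with miR-203 and by -0.99 with miR-205. The E2F motif TTTGGCGC, searched in the same promoters, was found in 6 of 45 tested replication genes with a promoter (13.3%) and in 1.12% of promoters of all tested genes. Of these 6 genes GINS1 and MCM6 rose, and CDC6, POLA1, POLE and POLE2 were not called, so the motif was in 2 of 20 called replication genes with a promoter (10%).

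**Figure D4:**
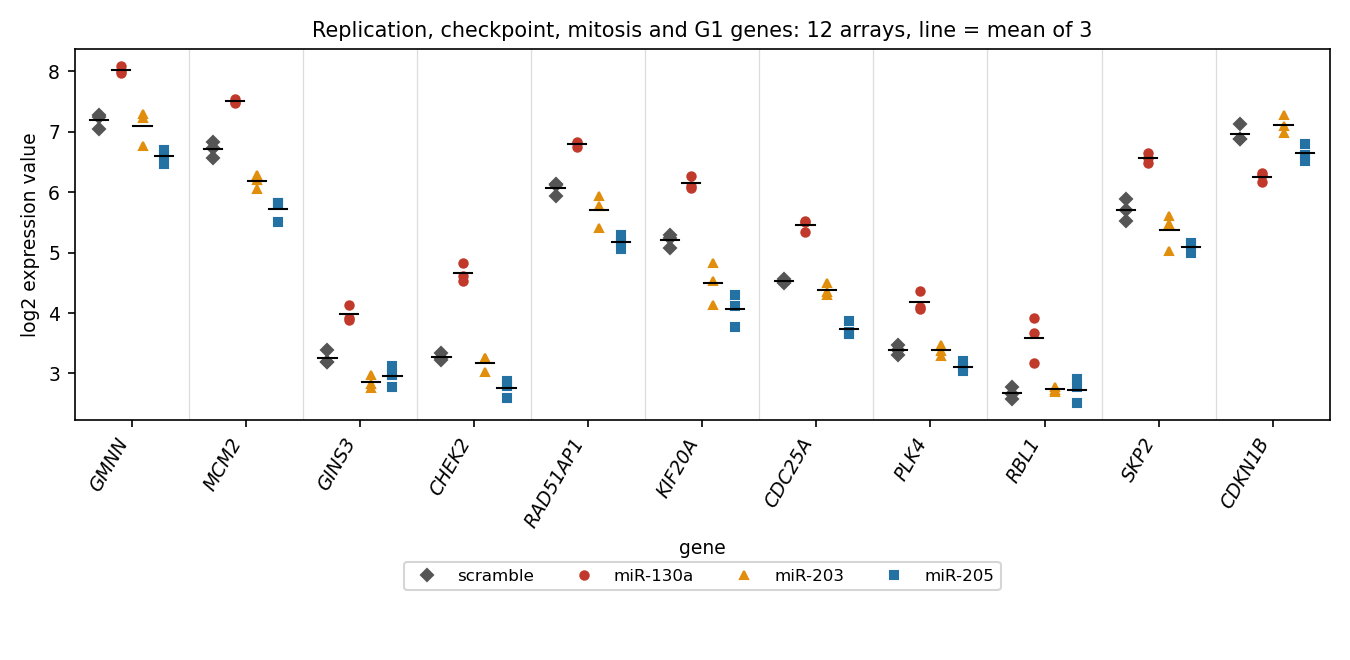
Level (log2) of 11 genes of replication, DNA damage checkpoint, mitosis and G1 control on each of the 12 arrays by microRNA, with a line at each mean of 3 arrays. In 10 genes the miR-130a arrays lie above all other arrays, and CDKN1B is lowest on the miR-130a arrays.

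Cholesterol synthesis in the cell starts from acetyl-CoA and runs through mevalonate and squalene, and its genes respond together to the transcription factor SREBP2. Of 24 tested genes of synthesis and uptake 11 rose, 3 fell and 10 were not called, with a median of 0.19 (0.28 without genes with equal values). So 58.3% were called, against 23.6% of all tested genes (12% higher and 11.6% lower). MSMO1, the methylsterol oxidase, read 9.57, 9.55 and 9.64 on miR-130a arrays and 8.29, 8.20 and 8.24 on scramble arrays, a rise of 1.34 ± 0.08 (adjusted p = 6.15e-08). HMGCS1, which makes the substrate of HMG-CoA reductase, stood at 6.32, 6.29 and 6.27 against 5.20, 5.35 and 5.34 and rose by 0.99 ± 0.07. SQLE, the squalene epoxidase, rose by 0.88 ± 0.11 and the isopentenyl isomerase gene IDI1 by 0.76 ± 0.08. PMVK, of the mevalonate arm, fell by 0.60 ± 0.11, so members of the same pathway were called in opposite directions. Against miR-203 15 members were higher with miR-130a and 3 lower, and against miR-205 8 and 3. All tested genes gave 21.1% higher and 20.1% lower against miR-203, and 18.2% and 15.4% against miR-205. The sterol motif TCACNCCAC, searched on both strands of the same promoters, was found in 1 of 22 tested members with a promoter (SREBF2, not called), in 0 of 12 called members and in 1.05% of promoters of all tested genes. Fatty acid and triglyceride synthesis genes gave 6 higher and 2 lower of 21 (3 higher without miR-130a replicate 1), a share of 38.1% called. Among them SCD, the stearoyl-CoA desaturase, was at 0.41 ± 0.09 (0.83 with its most variable probe set).

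Immediate early and ERK-induced genes, which respond within a short time to growth factors and stress, rose in 15 of 29 cases and fell in 0, with a median of 0.38. That is 51.7% called, against 23.6% of all tested genes (12% higher and 11.6% lower). KLF4 and ZFP36L2, given above, led the list. JUN, of the AP-1 complex, was at 6.82, 6.92 and 6.79 with miR-130a and at 6.07, 5.86 and 6.06 with scramble, a rise of 0.84 ± 0.08. The phosphatase gene DUSP4 rose by 0.64. Without miR-130a replicate 2 the count was 9, as it was when dim probe sets were kept, which gave a median of 0.06. In the NF-kB list 7 of 19 rose and 0 fell (36.8% called). Besides TNFAIP3, the inhibitor gene NFKBIA read 8.31, 8.17 and 8.01 against 7.40, 7.29 and 7.42 and rose by 0.79 ± 0.11. MAP3K14, the noncanonical kinase NIK, rose by 0.81 ± 0.15 and TNIP1, which works with TNFAIP3, by 0.74 ± 0.10. The other 12 members were not called. The list's median was 0.03, from -0.03 without miR-130a replicate 1 to 0.10 without genes with equal values, and its lowest member was at -0.29.

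In the list of BCL2 family and death receptor genes 6 of 27 rose, 3 fell (1 without miR-130a replicate 3 or scramble replicate 2) and 18 were not called. So 33.3% were called, against 23.6% of all tested genes (12% higher and 11.6% lower). PMAIP1, given above, is one of those that rose. FAS, the receptor for FAS ligand, was at 5.72, 5.80 and 5.75 with miR-130a and at 4.50, 4.55 and 4.74 with scramble, a rise of 1.17 ± 0.10 (adjusted p = 4.1e-06). TNFRSF10B, a receptor for TRAIL, was at 8.32, 8.32 and 8.34 against 7.37, 7.26 and 7.39, a rise of 0.99 ± 0.07. BCL2L2, an anti-apoptotic member, fell by 0.45. Among p53 target genes, a list that holds PMAIP1, FAS and TNFRSF10B too, 8 of 27 rose and 3 fell (40.7% called). The median was -0.02 (0.04 without scramble replicate 1). ZMAT3, a direct p53 target, was at 5.29, 5.22 and 5.09 against 5.67, 6.03 and 5.89, a fall of 0.67 ± 0.11, so well known p53 targets were called in both directions.

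Androgen-induced genes were called both ways. Of 34 tested members 10 rose and 5 fell (3 without miR-130a replicate 3), with a median of 0.10 (0.03 when dim probe sets were kept). So 44.1% were called, against 23.6% of all tested genes (12% higher and 11.6% lower). FKBP5, a chaperone of steroid receptors, read 5.36, 5.38 and 5.28 with miR-130a and 3.86, 3.73 and 4.06 with scramble, a rise of 1.46 ± 0.15 (adjusted p = 1.53e-05). ELL2, an elongation factor gene, rose by 1.42 ± 0.17 (0.71 as the mean of its probe sets), and the prostaglandin receptor gene PTGER4 by 1.11 ± 0.19 (0.55 as that mean). KLF4 is in this list as well. AZGP1, a glycoprotein secreted by the prostate, read 5.25, 5.50 and 5.47 against 6.18, 6.29 and 6.17, a fall of 0.81 ± 0.10. Against miR-203 21 members were higher with miR-130a and 1 lower, and against miR-205 5 were higher and 13 lower. All tested genes gave 21.1% higher and 20.1% lower against miR-203, and 18.2% and 15.4% against miR-205. Relative to scramble the list medians were 0.10 with miR-130a, -0.34 with miR-203 and 0.30 with miR-205, so miR-130a stood between the other microRNAs.

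Steroid metabolism genes were split as well, with 7 of 21 higher and 5 lower, of which the lower count was 8 without scramble replicate 1 and 3 without scramble replicate 3. In the main fit 57.1% of them were called, against 23.6% of all tested genes (12% higher and 11.6% lower). UGT2B28 went from 4.92, 4.63 and 4.81 on scramble arrays to a mean of 6.98 on miR-130a arrays (adjusted p = 1.43e-08). UGT2B15, which also conjugates androgens, read 8.10, 8.06 and 8.17 against 7.32, 7.02 and 7.13, a rise of 0.95 ± 0.09 (0.61 as the mean of its probe sets). Genes of this family are near-identical in sequence, and their probe sets may share signal. The steroid sulfatase gene STS rose by 1.10 ± 0.10 (0.48 as the mean of its probe sets) and the reductase gene DHRS2 by 0.93 ± 0.11. AKR1C1, which inactivates progesterone, fell by 0.75 ± 0.18 (0.35 as the mean of its probe sets), was dim on all but 1 of the miR-130a arrays and lost its call when dim probe sets were kept (adjusted p = 0.0538).

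**Figure D5:**
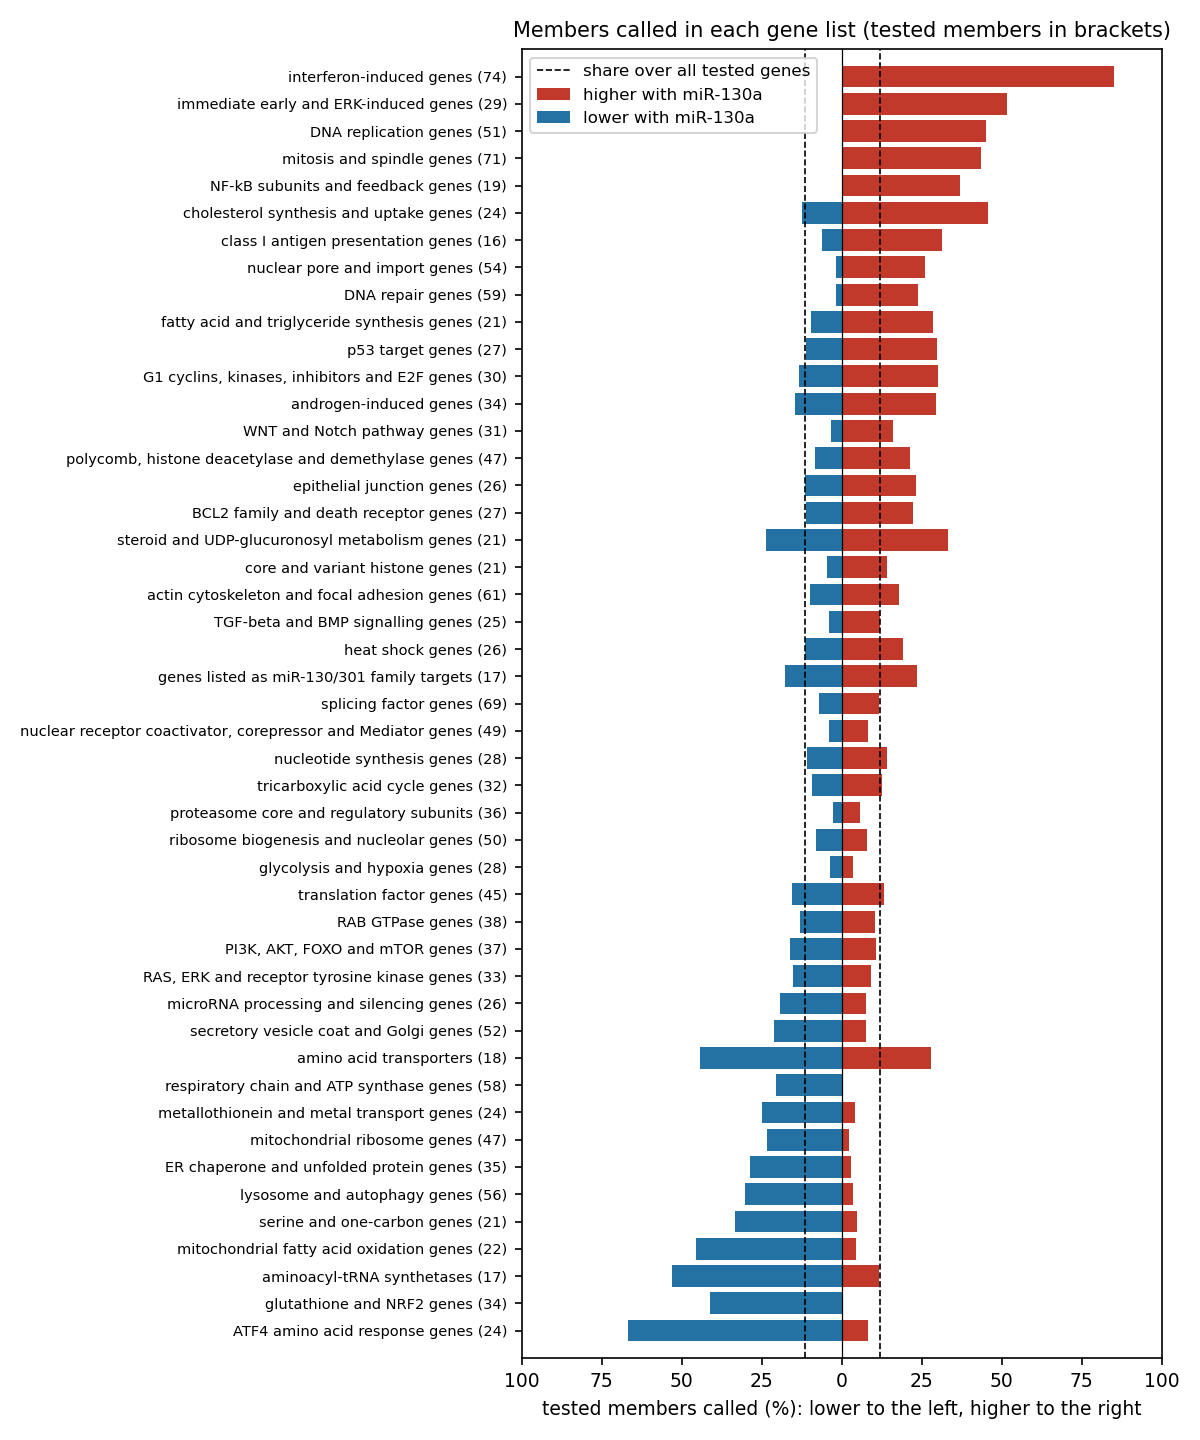
Share of tested members called higher (red, to the right) and lower (blue, to the left) with miR-130a in each gene list of at least 15 tested genes, in percent, with the number of tested members in brackets. Dashed lines mark the shares over all 6821 tested genes, 12% higher and 11.6% lower; interferon-induced genes lie farthest to the right and ATF4 amino acid response genes farthest to the left.

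The interferon response gave the largest differences on the arrays. Of 130 listed genes 98 were named and 74 tested, and of these 63 rose, 0 fell and 11 were not called. Over all tested genes 12% were higher and 11.6% lower. The brightness filter depends on the change here, because 21 members lay below the median on all arrays of a group and could be tested only where they were bright. The inflammatory chemokine gene CXCL10 had a mean of 9.95 with miR-130a and read 2.36, 2.61 and 2.60 with scramble, a rise of at least 146-fold. IFIT1, which binds foreign RNA, read 11.54, 11.71 and 11.54 against 4.98, 4.74 and 4.87, a rise of 6.73 ± 0.09 (adjusted p = 6.66e-15). IFIT3, OASL and CCL5 were the others of the 5 largest, at 6.70, 6.23 and at least 73.2-fold. Members that were not called included IRF2 (0.24), TRIM25 (-0.12) and LY6E (0.03), named here after their values were seen. Class I antigen presentation genes moved less: 5 of 16 rose and 1 fell, with the peptide transporter gene TAP1 at 0.76 ± 0.16 and the light chain gene B2M at 0.44 ± 0.10 (0.73 with its most variable probe set); 3 were higher without miR-130a replicate 2 or scramble replicate 2. Against miR-203, 56 of the 74 interferon genes were higher with miR-130a and 0 lower, and against miR-205 66 and 0. All tested genes gave 21.1% higher and 20.1% lower against miR-203, and 18.2% and 15.4% against miR-205. These counts reuse the miR-130a arrays, and the filter limits them in the same way.

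A stretch of the IFIT1 promoter is shown because it holds the interferon-stimulated response element, with 2 matches. The motif, GAAA followed by any 2 bases and GAAA, was found on either strand in 34 of 56 tested interferon genes that have a promoter in the table (60.7%) and in 2.96% of promoters of all tested genes. The stretch lies at chr10:89392473-89392622 on the plus strand (GRCh38.p14), and the capitals mark both matches, which run on the opposite strand.
IFIT1: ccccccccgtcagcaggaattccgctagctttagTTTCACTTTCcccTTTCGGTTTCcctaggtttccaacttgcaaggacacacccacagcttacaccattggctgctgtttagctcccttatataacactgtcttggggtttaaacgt
A match describes these letters only.

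Genes listed as targets of the miR-130 family were called in both directions. Of 39 listed genes 17 were tested, and of these 3 fell, 4 rose and 10 were not called. That is 41.2% called, against 23.6% of all tested genes (12% higher and 11.6% lower). ATXN1, the ataxin 1 gene, read 2.78, 2.50 and 2.52 with miR-130a, brighter than the median of the array on 1 of these, and 3.71, 3.74 and 3.72 with scramble, a fall of 1.13 ± 0.14 (0.67 as the mean of its probe sets). TNRC6B, a scaffold of the silencing complex, read 4.73, 4.38 and 4.49 against a scramble mean of 5.11, a fall of 0.57 ± 0.10, and it was 0.40 and 0.84 below the other microRNAs.

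The listed targets that rose were IRF1, an interferon-induced transcription factor (1.10 ± 0.11), DICER1, which cuts microRNA precursors (0.85 ± 0.12), the splicing regulator gene QKI (0.60 ± 0.12) and the kinase gene WNK1 (0.47 ± 0.08). DICER1 also differed from scramble by 0.54 with miR-203 and by 0.76 with miR-205, and the mean of its probe sets gave 0.40 for miR-130a. With that mean QKI was at 0.23 and WNK1 at 0.19, and WNK1 was not called when its most variable probe set stood for it (0.10, adjusted p = 0.413). ACSL1, ACVR1, BMPR2, CYLD, INHBB, NRP1, RAB5A, SMAD4, SMAD5 and TSC1 were not called and lay between -0.24 and 0.17. In the list of microRNA processing and silencing genes 5 of 26 fell and 2 rose (1 without miR-130a replicate 1, scramble replicate 2 or scramble replicate 3). Its share called, 26.9%, lay near the 23.6% of all tested genes. DCP2, the decapping enzyme, was at 6.62, 6.65 and 6.39 against 7.48, 7.04 and 7.32, a fall of 0.72 ± 0.11, and PRKRA, a partner of DICER1 and of the RNA-activated kinase PKR, fell by 0.56 ± 0.10.

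Signalling, adhesion and junction lists were called in 16% to 34.6% of their tested members, against 23.6% of all tested genes. In the PI3K, AKT, FOXO and mTOR list 4 of 37 rose and 6 fell: the phosphatase gene PHLPP2 rose by 0.80 ± 0.12 and MTOR by 0.60 ± 0.09, while RRAGD, a GTPase that brings mTOR complexes to the lysosome, fell by 0.74 ± 0.10 (1.20 with its most variable probe set) and MLST8, a subunit of both mTOR complexes, by 0.59 ± 0.10. Averaged over their probe sets PHLPP2 was at 0.40 and MTOR at 0.31. GHR, the growth hormone receptor, was at 6.47, 6.20 and 6.10 against 5.35, 5.02 and 4.98, a rise of 1.14 ± 0.13, in a list of RAS, ERK and receptor genes with 3 higher and 5 lower of 33 (24.2% called). The lower count there was 1 without miR-130a replicate 3 and 2 without miR-130a replicate 2, scramble replicate 2 or scramble replicate 3. MYH10, a nonmuscle myosin heavy chain, rose by 0.74 ± 0.07 in an actin and adhesion list with 11 higher and 6 lower of 61 (7 higher without miR-130a replicate 1, miR-130a replicate 3 or scramble replicate 2). The epithelial junction list gave 6 higher and 3 lower of 26 (1 lower without miR-130a replicate 2, scramble replicate 2 or scramble replicate 3), with OCLN at 0.59 and CLDN7 at -0.52, both tight junction genes. BAMBI, a decoy receptor of TGF-beta signalling, was at 0.71 in a list with 3 higher and 1 lower of 25, and LGR4, a receptor that strengthens WNT signalling, at 0.77 in one with 5 higher and 1 lower of 31 (LGR4 was not called when dim probe sets were kept, adjusted p = 0.0633).

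Nuclear transport genes were higher in 14 of 54 cases and lower in 1, with a median of 0.15 (0.10 as the mean of the probe sets). That is 27.8% called, against 23.6% of all tested genes (12% higher and 11.6% lower). KPNA3, an importin alpha, was at 5.65, 5.67 and 5.45 with miR-130a and at 4.80, 4.83 and 4.81 with scramble, a rise of 0.78 ± 0.08. NUP153, of the nuclear basket, rose by 0.67 ± 0.12. Polycomb, deacetylase and demethylase genes gave 10 higher and 4 lower of 47 (29.8% called). The histone demethylase genes KDM4B, at 0.79 ± 0.09 (0.49 as the mean of its probe sets), and KDM6B, at -0.65 ± 0.13, went opposite ways. The higher count of that list was 4 or 5 without any 1 of the arrays other than scramble replicate 1, and the lower count was 2 without miR-130a replicate 1, miR-130a replicate 2 or scramble replicate 1. KDM4B differed by 0.76 with miR-203 and 0.83 with miR-205 from the same scramble arrays.

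The remaining lists are set against the 23.6% called among all tested genes. Glycolysis and hypoxia genes gave 1 higher and 1 lower of 28, proteasome subunits 2 and 1 of 36, nuclear receptor cofactors and Mediator genes 4 and 2 of 49, nucleolar genes 4 and 4 of 50 and splicing factors 8 and 5 of 69. Core and variant histones gave 3 and 1 of 21, Hippo pathway genes 2 and 0 of 12 and circadian clock genes 1 and 1 of 13. All of these lay below that share, at 7.14% to 19%. RAB GTPases gave 4 and 5 of 38, nucleotide synthesis genes 4 and 3 of 28, polyamine genes 2 and 1 of 12, nuclear receptors 2 and 2 of 14, translation factors 6 and 7 of 45, heat shock genes 5 and 3 of 26 and metal handling genes 1 and 6 of 24. These lay at or above it, at 23.7% to 30.8%. Single arrays decided several of these counts. Without miR-130a replicate 1, 3 splicing factors, 3 translation factors and 1 histone gene were higher, and 2 RAB genes and 3 metal genes lower. Without miR-130a replicate 2, 2 splicing factors, 1 nucleotide synthesis gene and 3 metal genes were lower, and 4 splicing factors and 1 histone gene higher. Without miR-130a replicate 3, 3 translation factors and 3 RAB genes were lower, and 4 splicing factors and 1 histone gene higher. Without scramble replicate 1, 1 histone gene was higher, without scramble replicate 2, 3 RAB genes were lower, and without scramble replicate 3, 3 splicing factors were higher. The nucleolar counts fell to 2 higher and to 1 or 2 lower, and both nuclear receptor counts to 0 or 1, with several arrays. With array weights 19 splicing factors, 9 cofactor and Mediator genes and 7 nucleotide synthesis genes were higher. Of 29 counts of 1 or 2 members over all lists, 24 moved by over 1.5 times with an array left out. Larger counts moved as well: of 66 counts of 3 or more members, 30 did so. RRM2, the ribonucleotide reductase subunit that supplies deoxynucleotides, rose by 0.68 ± 0.15 and was 2.02 above miR-203 and 1.95 above miR-205.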

How the data were processed

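Total RNA from LNCaP cultures was measured on expression arrays, 3 per group in 4 groups. The deposited series table holds log2 values, and R 2.9.0, RMA and limma are named per the submitters' processing notes, without saying what each did; annotation and background method: not given in the sources used here. Probe sets with 1 gene symbol in the platform annotation were used (1043 carry several and 2164 none). Group means of the 12 arrays were fitted with limma 3.58.1 in R 4.3.3 (eBayes, 8 residual and 4.84 prior degrees of freedom), with Benjamini-Hochberg adjustment of two-sided tests. Of the tested genes, 927 have equal values on arrays of a group, which narrows their measured spread. Bounds for dim genes set the bright group's mean against the dim gene's values, raised to the median of the array where they were lower. The procedure was tested on simulated data.

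The genes and 55 gene lists, written from general knowledge, were chosen with earlier results of these data known, and list counts are therefore descriptions. Named were the 15 largest called, non-overlapping differences each way outside the interferon and class I lists, the 5 largest interferon genes, up to 4 called members per list and direction, and the tested listed targets, of which 1 is counted but not reported here by name. The arrays were fitted without pairing. Deviations of same-numbered miR-130a and scramble arrays from their group means correlated at -0.067, -0.024 and -0.018. No strong shared shift by replicate number was seen, which cannot tell whether the cultures were paired. Promoters and mature microRNAs are from RefSeq (GRCh38.p14). The number of arrays limits the precision. Alternatives covered scaling, array weights, the arrays fitted, the filter, the choice of probe set, genes with equal values and each array left out in turn.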

Additional observations from a re-analysis of the deposited data

Results flagged for a closer look

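Probe sets with no gene symbol or with several were left out of the comparison of genes, and some of them differed between miR-130a and scramble arrays. Of 1292 such probe sets bright enough to test, 234 were called by limma (18.1%), 109 higher and 125 lower. That share lay below the 23.6% called among all tested genes. Here the p-values were adjusted over all bright probe sets, those of named genes included. At least 2-fold changes were found in 18 that were higher and 3 that were lower. This was flagged as a signal in data the comparison did not use. Some of these probe sets carry several gene symbols, and their genes are not named here.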

How the results depend on the processing

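The count of 1610 called genes stayed within 1.5 times of its value in all alternatives run, from 1182 to 2110, and between 1182 and 1578 when 1 array was left out. With the replicate number as a block it was 1631. With quantile scaling 45.7% of 1665 calls were higher, against 50.9%. Of 300 named genes that were called, 210 kept the call in every alternative that gave a value, between 248 and 271 kept it with 1 array left out, and between 242 and 300 in the others. With the probe set of largest variance, PSMD12 turned to -0.060 (adjusted p = 0.728) and RAB11A to -0.044 (adjusted p = 0.852), both of which had been called higher. The circadian clock median turned from -0.12 to 0.017 without genes with equal values. The causes were not tested. Values at the lowest level of the table have no order, so signal over background limits the genes given as bounds.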
